A study of Mus musculus with 17 samples.

Results

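The 500 regions of the mouse autosomes with the highest ATAC-seq fold enrichment in neuronal nuclei of the nucleus accumbens (NAc) are described here. Peaks of all 17 libraries on chromosomes 1 to 19 were merged where they overlapped, which gave 277655 regions, of which 36170 held a peak in every library. For each of these, the highest fold enrichment in each library was taken, and the regions were ranked by the median over the 17 libraries. The members were therefore chosen by the measured fold enrichment itself, so their level, rank, width and q-value are given as a description and without a test. The highest median was 1878 and the lowest, at rank 500, was 37.386. The last 3 members, the promoters of Zfp142 and Smpd3 and a 384-bp intergenic region, all had a median of 37.386, whereas the promoters of Derl3, Prrc2a and Sde2 just below the limit had medians of 37.363, 37.357 and 37.344, so the limit fell in a continuous range of values.

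Fold enrichment is the height of the pileup of aligned reads at a peak's summit (its highest point) over a background that was the same for all peaks of a library, as the peak caller wrote it. ATAC-seq (assay for transposase-accessible chromatin) uses the Tn5 transposase to insert sequencing adapters into DNA that is not covered by nucleosomes. The samples were NeuN+ nuclei, that is nuclei carrying a neuronal protein, sorted from the bilateral NAc of C57BL/6 mice (C57BL/6J in the study's methods) aged 52 to 54 days, and each library pooled tissue of 3 animals. The libraries fell into 6 groups. Diestrus females (low estrogen), proestrus females (high estrogen) and males received 10 mg/kg cocaine by intraperitoneal injection 1 h before the tissue was taken, or received none and gave the baseline at time 0, so the labels and methods name no injected control. Each group held 3 libraries, except male cocaine with 2; the proestrus cocaine libraries are numbered 1, 2 and 4, and 1 diestrus cocaine library (replicate 2) carries its stage in its title only. A bulk signal cannot tell apart more nuclei with an open region and more cuts per nucleus.

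The files give no read totals. Each library had between 75484 and 157014 peaks, and the background under a peak was a pileup of 6.26 to 9.55, against a median pileup of 324.5 to 492 at the members' summits. The male cocaine libraries had the fewest peaks, 87732 and 75484, and a median fold enrichment of 5.58 and 5.35 over the 36170 regions, compared to 8.03, 7.44 and 7.46 in the male controls. Among genes fixed as cell type markers, 5 of 5 neuronal and 9 of 11 medium spiny neuron markers (not Pdyn and Bcl11b) had a region in all 17 libraries. The same was true of 0 of 4 astrocyte, 1 of 4 oligodendrocyte (Mbp), 0 of 2 oligodendrocyte precursor, 0 of 4 microglial and 0 of 3 endothelial markers, and no marker of any type had a member region.

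Gene promoters are the strongest open sites of most cells. There, general and sequence-specific factors keep a stretch upstream of the start site free of nucleosomes, and factors such as NF-Y, which binds the CCAAT box, and Sp1, which binds GC boxes, are found at promoters of genes used in nearly every cell. Repeated DNA is the other usual source of tall peaks. The mouse major satellite is a tandem repeat of a 234-bp unit that fills pericentromeric heterochromatin, and ribosomal RNA genes lie in long tandem arrays, and only a small part of either is placed on the assembled chromosomes. How reads that align to several places were treated is not given in the sources used here.

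The following sequences from GRCm38.p6 (mm10) show what the tallest members are made of. A pair of neighbouring 234-bp units was read from the chromosome 9 member of rank 4, and a 117-base stretch around the summit of the rank 1 region on chromosome 2. Capitals in unit B mark its 15 differences from unit A (93.6% identical), and capitals in the rank 1 stretch mark its 5 differences from the chromosome 9 repeat (95.7% identical).

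Satellite unit A, chr9:3024356-3024589, plus strand: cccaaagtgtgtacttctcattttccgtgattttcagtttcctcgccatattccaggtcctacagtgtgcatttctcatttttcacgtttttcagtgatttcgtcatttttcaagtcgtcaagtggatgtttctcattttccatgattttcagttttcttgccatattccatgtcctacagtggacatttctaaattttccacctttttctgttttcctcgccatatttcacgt

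Satellite unit B, chr9:3024590-3024823, plus strand: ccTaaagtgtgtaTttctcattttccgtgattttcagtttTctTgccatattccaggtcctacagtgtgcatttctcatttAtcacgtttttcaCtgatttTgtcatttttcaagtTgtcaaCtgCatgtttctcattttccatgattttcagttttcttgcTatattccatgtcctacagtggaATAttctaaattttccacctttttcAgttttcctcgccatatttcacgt

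Rank 1 summit, chr2:98667071-98667187, minus strand: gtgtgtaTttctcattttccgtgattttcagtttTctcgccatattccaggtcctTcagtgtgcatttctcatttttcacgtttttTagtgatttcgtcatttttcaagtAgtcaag

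A stretch of 121 bases was read from the chromosome 17 ribosomal RNA (rRNA) gene region of rank 7 and from the chromosome 6 member of rank 456. Capitals mark the 6 differences of the chromosome 6 copy (95% identical).

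Chromosome 17 rRNA gene region, chr17:39847360-39847480, plus strand: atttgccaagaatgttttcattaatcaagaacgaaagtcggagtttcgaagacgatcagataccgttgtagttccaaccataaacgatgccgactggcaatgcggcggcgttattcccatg

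Chromosome 6 copy, chr6:3201449-3201569, plus strand: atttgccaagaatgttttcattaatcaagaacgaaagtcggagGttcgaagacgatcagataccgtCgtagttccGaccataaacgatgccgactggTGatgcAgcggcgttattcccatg

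A shared stretch of 55 bases came from a member in an intron of Gphn on chromosome 12 and from an intergenic member on chromosome 16, with 1 difference, in capitals (98.2% identical).

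Chromosome 12 member, chr12:78350875-78350929, plus strand: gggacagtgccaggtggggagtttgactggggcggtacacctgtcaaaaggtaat

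Chromosome 16 member, chr16:17222337-17222391, plus strand: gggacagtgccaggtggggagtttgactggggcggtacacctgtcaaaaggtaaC

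The last 4 are promoters of single-copy genes, from position 150 to 1 upstream of the RefSeq start on GRCm38.p6. They are the highest ranked members of this kind whose window held the NF-Y letters given below, and capitals mark matches to NF-Y or Sp/Klf. Sp1 encodes the GC-box factor itself, Dnpep an aspartyl aminopeptidase, Slc25a42 a mitochondrial carrier of coenzyme A, and Pwwp2a a chromatin protein that binds the histone variant H2A.Z.

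Sp1, chr15:102406166-102406315, plus strand: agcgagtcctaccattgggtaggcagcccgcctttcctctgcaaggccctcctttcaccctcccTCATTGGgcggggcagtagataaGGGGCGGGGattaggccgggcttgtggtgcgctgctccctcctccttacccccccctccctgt

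Dnpep, chr1:75317638-75317787, minus strand: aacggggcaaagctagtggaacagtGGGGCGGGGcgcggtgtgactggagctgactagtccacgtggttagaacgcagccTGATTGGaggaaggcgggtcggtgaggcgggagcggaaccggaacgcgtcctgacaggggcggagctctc

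Slc25a42, chr8:70212282-70212431, minus strand: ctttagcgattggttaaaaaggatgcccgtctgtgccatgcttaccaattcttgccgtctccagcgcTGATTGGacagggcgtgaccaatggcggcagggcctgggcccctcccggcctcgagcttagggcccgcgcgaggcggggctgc

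Pwwp2a, chr11:43681848-43681997, plus strand: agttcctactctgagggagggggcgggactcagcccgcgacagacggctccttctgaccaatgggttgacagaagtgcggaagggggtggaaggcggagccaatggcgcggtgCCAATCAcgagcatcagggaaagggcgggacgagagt

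Promoters made up most of the members. The summit of 443 of 500 members (88.6%) lay within 1 kb of the start of a protein-coding transcript in GENCODE, compared to 28.6% of all 36170 regions, and 461 (92.2%) lay within 1 kb of a start of any kind. Of the 443, 90 (20.3%) lay within 1 kb of starts of 2 or more genes on opposite strands, such as Cdca2 with Kctd9 and Rnf5 with Agpat1, compared to 10% of the 10327 start-site regions in all. Members were wide, with a median of 5860 bp against 1750 bp for all regions, and their median fold enrichment was 44.3 against 6.23.

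The summit position repeated closely between libraries. In 429 members (85.8%) the summits of all 17 libraries lay within 100 bp of the region's summit, compared to 28.4% of all regions. It lay upstream of the start site in 366 of the 443 (82.6%), at a median of 128 bp upstream (quartiles 190.5 and 52.5 bp), compared to 61.1% and a median of 27 bp for all start-site regions. By annotation, 280 summits were intergenic, 83 in an intron of a protein-coding gene, 78 in an untranslated part of an exon and 14 in coding sequence.

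The tallest single-copy promoter was that of Rap2a, a Ras-family GTPase (chr14:120473128-120482483). It had a median fold enrichment of 80.5, and Xpo1, the main receptor of nuclear protein export (chr11:23254059-23258331), one of 77.0. Next came Khsrp, an RNA-binding protein of splicing and mRNA decay, at 74.4, and Cdca2 with Kctd9 at 74.0. Rnf44, a RING finger protein, had 67.6, Hspa8, the constitutive Hsp70 chaperone, 66.8, Rnf5, a ubiquitin ligase of the endoplasmic reticulum, with Agpat1, 66.6, Leprot, named for its overlap with the leptin receptor gene, 66.5, and Sp1 65.8. These medians lay close to each other, and the median SD between libraries was 0.193 on the log2 scale for start-site members after centring each library on its median.

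**Figure D1:**
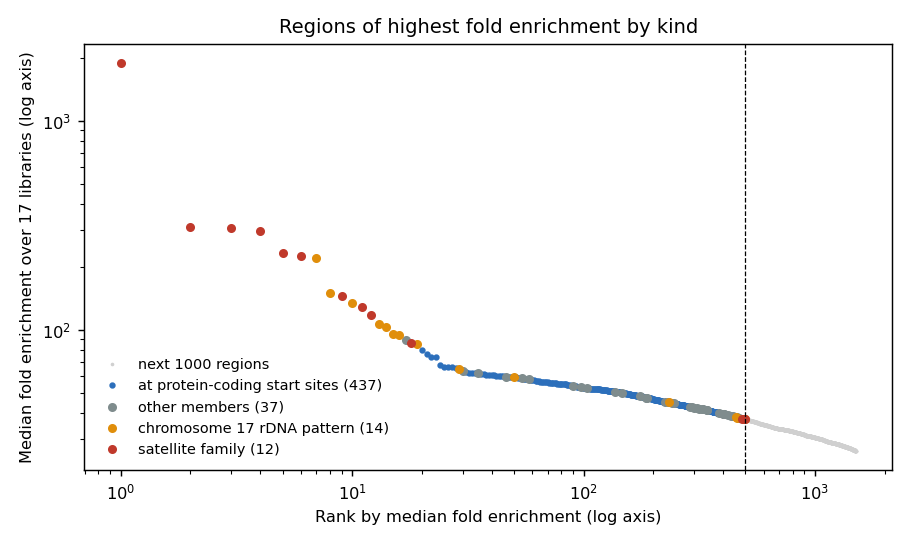
Median fold enrichment over 17 libraries (log axis) against rank (log axis) for the 500 members and for the next 1000 regions in grey; colors mark the 437 members at protein-coding start sites, the satellite family (12), the chromosome 17 rDNA pattern (14) and the 37 other members. All of the 12 highest points belong to the satellite family or the chromosome 17 rDNA pattern, and the dashed line at rank 500 cuts a continuous curve.

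To see what the promoters share beyond their height, 10 motifs were searched on both strands within 100 bp of each summit. NF-Y was searched as CCAATCA or CCAATGA or CCAATAG, Sp/Klf as GGGGCGGGG, AP-1 as TGAGTCA or TGACTCA, CRE as TGACGTCA, NRF1 as GCGCATGC, Ets as CCGGAAGT, the E-box as CACGTG and YY1 as AAGATGGC; CTCF and ZNF143 had longer patterns. No word of one motif contains a word of another, and matches to different motifs may overlap in position. NF-Y letters stood in 202 of the 443 start-site members (45.6%), compared to 15.4% of all start-site regions, and in 42.4% of all members compared to 8.39% of all regions. These 202 members held 284 NF-Y matches at a median of 117 bp upstream of the start (quartiles 191 and 64 bp), and 62 members held 2 or more and 15 held 3 or more. In the RefSeq promoter table, of which 358 of 437 single-copy start-site members had an entry, the stretch from 150 to 1 bases before the start held NF-Y letters in 28% of the members' 489 promoters and in 9.86% of all 32851. Sp/Klf letters stood there in 19.6% and 8.69%.

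The other motifs did not share this excess among start-site regions. Sp/Klf letters stood in 22.1% of start-site members and 18.2% of start-site regions, CRE letters in 2.93% and 2.89%, NRF1 letters in 4.29% and 4.62%, and the E-box in 9.03% and 7.32%. Ets letters stood in 2.26% against 5.89%, YY1 letters in 0.677% against 3.25%, and CTCF in 0.226% against 0.688%. AP-1, the site of Fos and Jun dimers, stood in 10 members (2%) compared to 11.2% of all regions, while among start-site regions the shares were 1.81% and 2.29%. ZNF143 matched 1.13% and 1.3%. GC content within 100 bp of the summit had a median of 62.2% in members at start sites and 65.7% in all start-site regions.

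**Figure D2:**
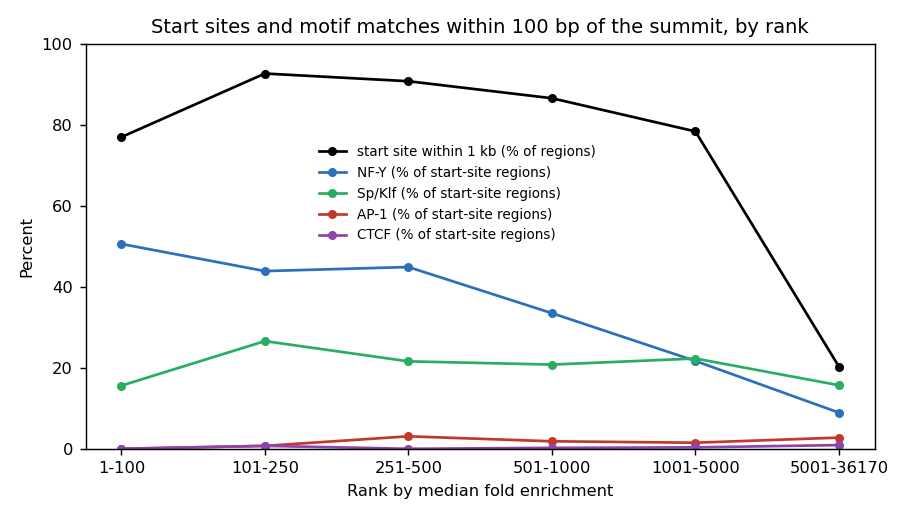
Share of regions with a protein-coding start within 1 kb of the summit, and share of such regions with NF-Y, Sp/Klf, AP-1 or CTCF letters within 100 bp of it (percent), by rank bin of median fold enrichment. NF-Y falls from 50.6% at ranks 1 to 100 through 33.5% in the 500 ranks after the members to 8.93% beyond rank 5000, while Sp/Klf stays between 15.6% and 26.6%.

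Gene lists were used to describe which promoters were members, and 536 of 20698 protein-coding genes (2.59%) had a member within 1 kb, or 4.97% of the 10775 with a region called in all libraries. Immediate early genes, which respond to neuronal activity within minutes, had 4 of 26: Jun, Egr1, Per1 and Jund, at median fold enrichments of 60.6, 51.2, 45.5 and 41.9. Fos, by contrast, had 11.5 and Fosb 16.5. The circadian clock list had 3 of 17 (Per1, which is in both lists, Tef and Dbp), translation factors 6 of 65 (such as Eif5a, Eif4a1 and Eef1a1, and the translation-arresting kinase Eif2ak3) and splicing and hnRNP genes 6 of 51 (such as Hnrnpc and Hnrnpa2b1). Histone genes had 3 of 79, which were those of the replacement variants H2afv, H2afz and H3f3b. Oxidative phosphorylation had 4 of 90, proteasome and ubiquitin conjugation 2 of 91 (Ube2d3 and Uba6), and cytosolic ribosomal proteins 1 of 76, which was Rps29, whose start lies in the region of a 7SL RNA gene. No member lay at any of 20 medium spiny neuron genes, 15 general neuronal genes or 17 glial and vascular genes; Ppp1r1b, which encodes DARPP-32, had a median of 18.8, Drd1 7.44 and Drd2 5.13.

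Small RNA genes were found under some members. Within 200 bp of the summit, 10 members (2%) held a gene of this kind, compared to 0.39% of all regions. They were 7 regions with a tRNA gene, both regions with a 7SL RNA gene (Rn7s1 and Rn7s2, the RNA of the signal recognition particle, at ranks 89 and 224) and the region of Rmrp, the RNA of RNase MRP, at rank 245. The Rn7s1 and Rn7s2 members matched each other over 355 bp at 98.9%. On chromosome 6, the members chr6:47747496-47749110 (rank 54) and chr6:47777190-47782843 (rank 293) matched the 4.5S RNA gene Rn4.5s at 98.3% over 177 bp and 97.1% over 174 bp. No member matched the mitochondrial genome by blastn, compared to 14 of the 36170 regions with any match and 2 with a match of at least 100 bp at 80% identity. This grouping of small RNA genes was made after the members' values had been seen.

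The members of ranks 1 to 6, 9, 11 and 12 belonged to a single family of satellite sequence. The family held 12 members that were linked by blastn matches over their summits, the others being ranks 18, 485 and 496. They lay on chromosome 2 (chr2:98666081-98667460 at Gm10800, rank 1; chr2:98662073-98663141 and chr2:98663551-98664241 at Gm10801; chr2:98664762-98665352), chromosome 9 (chr9:2999865-3005292, chr9:3006250-3008206, chr9:3021936-3028274 and chr9:3031658-3032952 at the gene models Gm10722, Gm11168, Gm10718 and Gm10717, and chr9:35305070-35305684 in an intron of Gm33838), chromosome 6 (chr6:103648936-103649424 in an intron of the cell adhesion gene Chl1), chromosome 12 (chr12:3109760-3110225) and chromosome 14 (chr14:19415582-19419813 at Gm21738). Several of these gene models are annotated as protein-coding over the repeat. The sequence matched itself best at a shift of 234 bp in 6 of the 12. Identity at this shift was 93.6% in the Gm10717 region, 78.1% at rank 4, the source of units A and B above, and 74.2% at rank 6. It was lower at ranks 9 (54.1%), 3 (52.8%) and 1 (46.2%). In the rest of the family the best shift was 58, 120, 121, 231 or 351 bp, at 38.5% to 58% identity. GC content at the summits was 32.3% to 36.8%, in contrast to the members' median of 62.2%.

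Most of the 6 members with the most genomic copies of their 50-base words belonged to this family. The median word within 100 bp of the summit had 56 copies in the rank 4 region, 37 in the chromosome 12 region, 21 in the Gm11168 region, 15 in the Gm10722 region and 9 in the Gm10717 region, and the 4.5S RNA member of rank 54 had 13. The rank 1 region had a median of 1 copy and a maximum of 67. Only identical words were counted, and its summit stretch shown above held 5 differences from the chromosome 9 repeat. In all, 8 members (1.6%) had a median of 2 or more copies, compared to 0.359% of all regions.

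The rank 1 region at Gm10800 had fold enrichments of 1804, 2490 and 2180 in the diestrus controls and 1660, 1676 and 2394 after cocaine in diestrus. The proestrus controls had 2022, 1915 and 1878, and the proestrus cocaine libraries 1753, 1521 and 2030. In males, the controls had 1141, 1325 and 1253 and the cocaine libraries 1993 and 2003. The 3 male controls were the lowest of all 17 libraries, and in females the cocaine and control libraries overlapped. The rank 4 region followed the same order, with 187, 200.4 and 192 in the male controls, 343 and 332 in male cocaine and 242 to 409.7 in the female libraries.

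In each library the family's median fold enrichment was set over the median of all 36170 regions. This ratio was 15 to 17.5 in the male controls, 38.6 to 39.4 in male cocaine, 27.1 to 31.4 in the diestrus controls, 21 to 43.8 in diestrus cocaine, 30.2 to 36.7 in the proestrus controls and 27.4 to 31.3 in proestrus cocaine. Over the 17 libraries, the 12 members correlated with the rank 1 region at Pearson r of 0.883 or more, and the next member at 0.831; the members share sequence and the points share libraries, so these values are descriptive.

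A second set stood out by its pattern over libraries. The member of rank 7, chr17:39842832-39849000, covers an annotated rRNA gene (CT010467.1) together with the noncoding genes Gm26917, Gm42418 and AY036118. The set was completed by 13 other members that followed it over the 17 libraries at r of 0.941 or more, and the next member had 0.901. This set was chosen after its values were seen, so its uniformity is a result of the choice. It is called the chromosome 17 rDNA pattern here. Its members other than the chromosome 17 region were narrow, with widths of 384 to 1075 bp, in contrast to the median of 5860 bp.

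A complete rDNA unit was not used here, so these members were compared by sequence only with each other and with the chromosome 17 region. The chr6:3200636-3201710 member matched the chromosome 17 region over 901 bp at 98.2%. A group of 3 members, in an intron of Gphn (chr12:78350534-78351207), at an untranslated exon of Lars2 (chr9:123461784-123462358) and between genes (chr16:17222153-17222590), matched each other, by up to 244 bp at 97.5%, as in the 55-base stretch above. The Zfp143 promoter at rank 128 also shared sequence with them, but its correlation with the chromosome 17 region was 0.429. The remaining 9 lay in introns of Cdk8 (chr5:146260823-146261520), of Cmss1 and Filip1l (chr16:57391117-57391843) and of Zc3h7a (chr16:11143754-11144490), at Mir6236 (chr9:110281126-110281519), at Gm36264 (chr13:9011549-9012329), and between genes at chr11:109011476-109012206 (rank 8), chr3:5860229-5860973 (rank 10), chr17:36231100-36231969 (rank 15) and chr15:85177576-85177959 (rank 500). Together, the satellite family and this pattern held all of the 12 highest and 18 of the 20 highest members. The others among the 20 were a 382-bp intergenic region at chr10:121763061-121763442 (rank 17, median 89.7), named after its value was seen, and Rap2a.

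The chromosome 17 region varied most among the diestrus libraries. Its fold enrichments were 283, 757 and 622 in the diestrus controls and 375.5, 169.8 and 138.6 after cocaine. The proestrus controls had 265, 405 and 388 and the proestrus cocaine libraries 206, 186 and 209.9; the male controls had 205, 146 and 166 and male cocaine 238 and 221. In proestrus all cocaine libraries were below all controls, as in 7.3% of all regions. In males all controls were below both cocaine libraries, as in 1.9% of all regions. In diestrus the highest cocaine library was above the lowest control. As a ratio to the median of all regions, the pattern lay at 17.3 to 34.1 in the diestrus controls, 10 to 18.4 in diestrus cocaine, 18.8 to 24 in the proestrus controls, 12.8 to 14.9 in proestrus cocaine, 7.84 to 9.64 in the male controls and 16.6 to 17.2 in male cocaine.

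**Figure D3:**
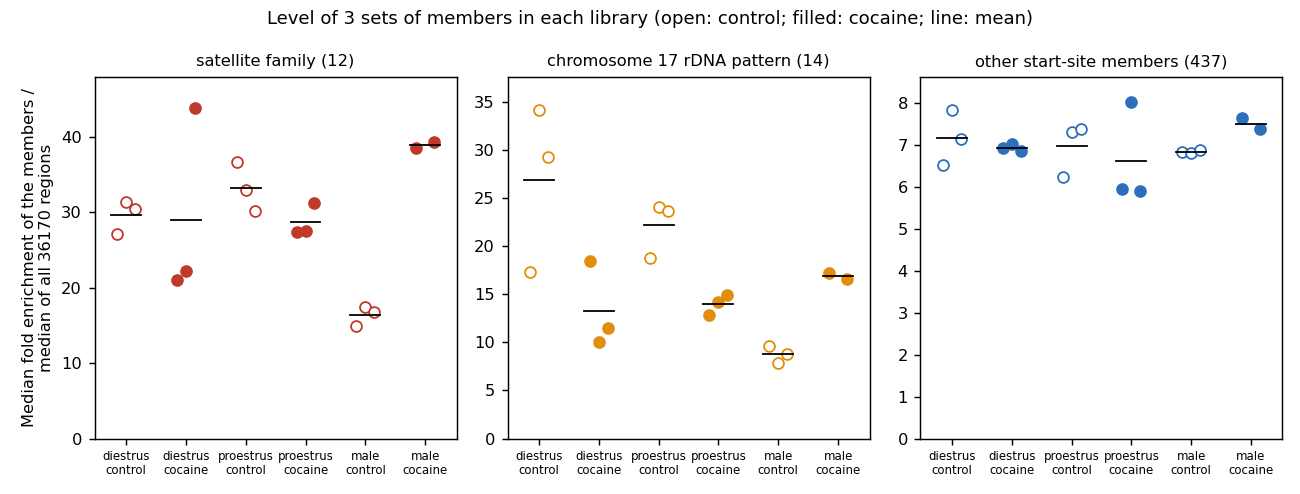
Median fold enrichment of the satellite family (12), the chromosome 17 rDNA pattern (14) and the other 437 start-site members in each library, divided by the median of all 36170 regions in that library; open circles are control libraries, filled circles cocaine libraries, and lines group means. Male controls lie at 15 to 17.5 for the satellite family and 7.84 to 9.64 for the chromosome 17 rDNA pattern, below every other library, while the start-site members lie between 5.9 and 8.02 in all libraries.

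These 26 members also varied more between libraries than the rest. The median SD on the log2 scale, after centring each library on its median, was 0.613 for the chromosome 17 rDNA pattern and 0.464 for the satellite family, compared to 0.193 for the 437 other start-site members and 0.252 for all regions. The pattern was chosen to follow a region that itself varied between libraries, so its larger SD is in part a result of the choice.

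To compare the groups, log2 fold enrichment was fitted with limma over all 36170 regions with p-values adjusted over that table, and the members were then counted. The libraries were quantile normalized, which gives the regions of each rank the same value in every library. The rank 1 region was the highest in all 17 libraries, so its change is 0 by construction in this fit. Results are therefore set beside those of the same fit with each library centred on its median or with fold enrichment as deposited. As deposited, the median of all regions moved by -0.393 on the log2 scale between male control and male cocaine, by -0.18 between diestrus and proestrus controls and by 0.251 between female and male controls. A change in a named member is relative to these shifts.

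Cocaine in diestrus was followed by higher enrichment at 74 members (14.8%; 6.67% of all regions) and lower enrichment at 64 (12.8%; 6.31% of all regions). Of the 74, 65 lay at start sites, and 10 of the 64 belonged to the chromosome 17 rDNA pattern. NF-Y letters stood in 40.5% of the members that rose and 20.3% of those that fell, compared to 42.4% of all members. The shares among members that rose and fell were 44.4% and 10% after cocaine in proestrus (4 of 9 and 1 of 10). In males they were 26.1% and 41.7% (6 of 23 and 10 of 24). Start-site members made up 8 of the 9 and 3 of the 10 in proestrus, and 10 of the 23 and 20 of the 24 in males. The lists thus differed in their share of start-site members, and the NF-Y shares do not compare like with like. The counts of called members in diestrus became 17 and 50 with median centring (2308 and 1725 of all 36170 regions). As deposited they were 1 and 15 (558 and 186 of all regions). The total of 138 became 17 to 285 when 1 library was left out (without diestrus cocaine 2 and diestrus cocaine 1). Called under all 3 scalings were Tle1, which rose, and 11 members that fell, namely 10 of the chromosome 17 rDNA pattern and Ptprs, a receptor tyrosine phosphatase of neurons. How many of all regions passed under all 3 scalings is not given, here or in the later comparisons. Such counts therefore have no background share.

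Tle1 encodes a Groucho-family corepressor, and its promoter region is chr4:72194897-72203580. It had fold enrichments of 33.1, 40.1 and 31.8 in the diestrus controls and 54.7, 65.3 and 46.6 after cocaine. Every cocaine library was thus above every control, as in 13.4% of all regions. The change was 0.66 ± 0.10 (log2, SE; limma adjusted p = 0.000872). Xpo1 had 66.6, 79.9 and 78.9 in the controls and 90.3, 95.0 and 74.1 after cocaine, which overlap, with a change of 0.62 ± 0.11 (limma adjusted p = 0.00159) that became 0.19 (limma adjusted p = 0.409) with median centring. Next in size were Chchd7, at 0.58, Megf9, a membrane protein with EGF-like repeats, at 0.57, and Selenof, a selenoprotein of the endoplasmic reticulum, at 0.52; all 3 also passed with median centring and none of them as deposited.

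**Figure D4:**
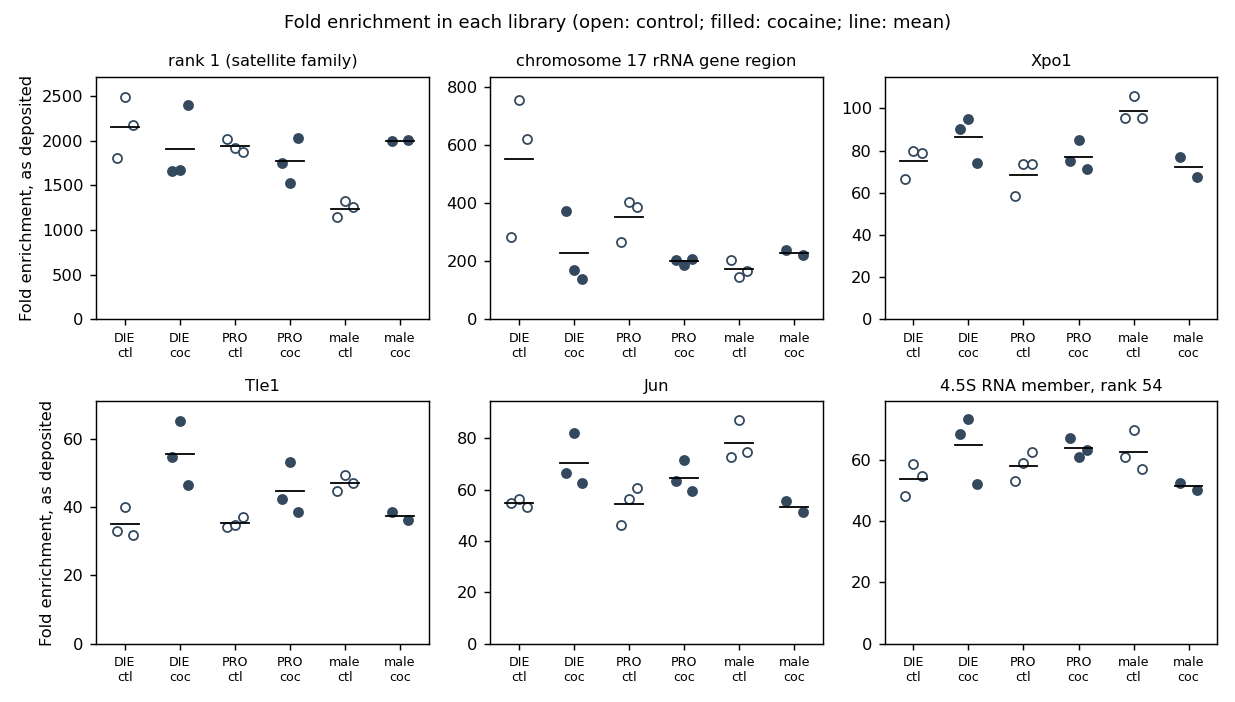
Fold enrichment as deposited in each library for 6 members (the rank 1 satellite region, the chromosome 17 rRNA gene region, the promoters of Xpo1, Tle1 and Jun, and the 4.5S RNA member of rank 54); DIE and PRO are diestrus and proestrus females, ctl control (open), coc cocaine (filled), and lines are group means. Male controls are the lowest libraries for the rank 1 region, at 1141 to 1325, and the highest for Xpo1, at 95.3 to 106.

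The 5 largest decreases in diestrus were all in the chromosome 17 rDNA pattern. The rank 500 region on chromosome 15 had 43.0, 141 and 121 in the controls and 68.3, 25.7 and 21.6 after cocaine, a change of -1.19 ± 0.22 (limma adjusted p = 0.002). The Gphn intron member fell by 0.95 on the log2 scale, the Mir6236 member by 0.85, the chromosome 6 copy by 0.73 and the chr16:17222153-17222590 member by 0.72. Of the 14, 10 fell, with a median of -0.52, and with median centring or as deposited all 14 fell, with medians of -1.02 and -1.01. All 3 diestrus cocaine libraries were below all 3 controls in 1 of 14, compared to 2.4% of all regions. The satellite family had 5 called higher and 0 lower, and no call in either direction under the other scalings. The diestrus cocaine library 1 lay apart from the other diestrus cocaine libraries at these members, and diestrus control 1 from the other controls.

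Of the listed genes, Jun had 54.9, 56.2 and 53.3 in the diestrus controls and 66.4, 81.9 and 62.5 after cocaine. Every cocaine library was above every control, as in 13.4% of all regions. Jun encodes a subunit of AP-1, and the change was 0.50 ± 0.13 (limma adjusted p = 0.0131), which was 0.34 with median centring (limma adjusted p = 0.128) and 0.35 as deposited (limma adjusted p = 0.245). Egr1, Per1 and Jund passed in no cocaine comparison of a single group. H2afz rose by 0.49 and Hnrnpa3 by 0.47, Hnrnpc, Uba6 and Ube2d3 also rose, and Eif5a and Dbp fell by 0.41 and 0.38. That made 1 of 4 immediate early, 1 of 3 histone, 2 of 6 splicing, 2 of 2 proteasome and ubiquitin, 1 of 6 translation and 1 of 3 clock members, against 6.67% of all regions called higher and 6.31% called lower. With median centring H2afz, Hnrnpa3 and Eif5a passed. Uba6, Ube2d3, Hnrnpc and Dbp did not, at 0.33, 0.27, 0.16 and -0.42 (limma adjusted p of 0.101, 0.214, 0.472 and 0.0842), and as deposited none of these genes passed (lowest limma adjusted p = 0.104, for H2afz).

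In proestrus, cocaine was followed by higher enrichment at 9 members (1.8%; 2.64% of all regions) and lower at 10 (2%; 2.46% of all regions), shares near or under the background. Those with the largest increases were Gm10801 (0.53) and chr2:98664762-98665352 (0.51) of the satellite family, Pdp1, a phosphatase that activates pyruvate dehydrogenase (0.46), Ing3, a subunit of a histone acetyltransferase (0.41), and Megf9 (0.40). The Gm10801 value was -0.06 with median centring. Those with the largest decreases were the chromosome 15 member (-0.73), the Gphn intron member (-0.66), the chromosome 17 region (-0.58), the chromosome 6 copy (-0.56) and the promoter of Maz, a zinc finger factor (-0.49). No member was called under all 3 scalings. With fold enrichment as deposited limma called 0 members in either direction, and 528 of all regions higher and 29 lower. In the quantile fit 79 members were higher and 65 lower at an unadjusted p under 0.05, compared to 12% and 12.1% of all regions. Leaving out 1 library gave totals of 0 (without proestrus control 3) to 79 (without diestrus cocaine 1) in place of 19. All 3 cocaine libraries were below all 3 controls in 14 of 14 members of the chromosome 17 rDNA pattern and 3 of 12 of the satellite family, compared to 7.3% of all regions. The pattern's members were chosen to follow the chromosome 17 region over these libraries, so they repeat its order and are not separate observations.

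In males, 23 members were higher after cocaine (4.6%; 3.52% of all regions) and 24 were lower (4.8%; 5.12% of all regions). The split was 31 higher and 0 lower with median centring (2092 and 1477 of all 36170 regions). As deposited it was 13 higher and 94 lower (110 and 11708 of all regions). Leaving out 1 library gave totals of 15 (without male cocaine 2) to 89 (without diestrus cocaine 1) in place of 47. The members that rose included 11 of the chromosome 17 rDNA pattern and 3 of the satellite family. The chromosome 17 region itself was not called, at -0.20 (limma adjusted p = 0.545). It was at 0.91 with median centring (limma adjusted p = 0.0341) and at 0.43 as deposited (limma adjusted p = 0.291). Gm10717 had 23.8, 24.2 and 23.5 in the controls and 48.2 and 45.9 after cocaine (1.31 ± 0.23; limma adjusted p = 0.000403), and Gm21738 had 54.6, 55.2 and 60.3 against 126 and 109 (1.29 ± 0.18; limma adjusted p = 2.62e-05). The chr16:17222153-17222590 member (1.01), the intergenic chr15:75085375-75087179, 24851 bp from the start of Ly6c2 (0.98), and chr2:98663551-98664241 (0.98) followed. Called under all 3 scalings were 3 of the satellite family (Gm10717, Gm21738 and chr2:98663551-98664241) and the chr15:75085375-75087179 member, which had 44.1, 32.6 and 39.4 in the controls and 57.4 and 62.0 after cocaine. With median centring 11 of 12 satellite members were called higher, and as deposited 12 of 12. The rank 4 region was at 0.09 in the quantile fit, 1.29 with median centring (limma adjusted p = 0.000737) and 0.81 as deposited (limma adjusted p = 0.00586). In the chromosome 17 rDNA pattern, 14 of 14 were called higher with median centring and 0 as deposited.

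All 3 male controls were below both male cocaine libraries in 12 of 12 satellite members and 13 of 14 of the chromosome 17 rDNA pattern, as deposited, compared to 1.9% of all regions. The satellite members share sequence and the pattern's members were chosen to vary alike, so these counts are not of separate observations. In the rank 1 region the change as deposited was 0.69 (limma adjusted p = 0.0426) and with median centring 1.18 (limma adjusted p = 0.0566). The lower number of peaks and lower median fold enrichment of the male cocaine libraries went in step with this comparison, and their part in it was not tested.

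The 5 largest decreases in males were Xpo1 (-0.75), Leprot (-0.73), Cdca2 (-0.67), Fem1c, a substrate receptor of a ubiquitin ligase (-0.57), and Garem1, an adaptor of growth factor signaling (-0.54). Leprot had 90.9, 82.8 and 85.2 in the controls and 53.5 and 52.2 after cocaine. As deposited Leprot, Fem1c and Garem1 passed, at -0.71, -0.88 and -0.83, whereas with median centring no male decrease passed and the values of Xpo1 and Cdca2 were 0.03 and 0.03. In the lists, Eif4a1 rose by 0.42 and Eif2ak3 fell by 0.53. Eif4a1 was at 0.56 with median centring (limma adjusted p = 0.0318) and at 0.08 as deposited (limma adjusted p = 0.817), and Eif2ak3 at -0.05 with median centring (limma adjusted p = 0.868) and at -0.54 as deposited (limma adjusted p = 0.0307).

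Without cocaine, proestrus and diestrus differed at few members. Limma called 2 members higher in proestrus (0.4%; 0.177% of all regions) and 0 lower (0.511% of all regions), with 43 higher and 15 lower at an unadjusted p under 0.05, compared to 7.45% and 7.96% of all regions. Both were the 4.5S RNA members. The rank 54 region had 48.3, 58.5 and 54.7 in diestrus and 53, 58.8 and 62.7 in proestrus, which overlap as deposited, and the scaled change was 0.42 ± 0.10 (limma adjusted p = 0.0415). In the rank 293 region the values were 31.0, 37.7 and 39.95 against 39.8, 44.4 and 42.7 (0.46 ± 0.11; limma adjusted p = 0.0457). With median centring or as deposited neither passed, and no other member did. Over all regions, 37 were higher and 71 lower with median centring, and 4 and 326 as deposited. In the quantile fit the member total was 0 without any 1 of the 6 control libraries in the comparison. It was 9 without diestrus cocaine 1, which enters the shared estimate of the spread.

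The largest counts came from the sexes. Male controls were higher than the mean of the female controls at 102 members (20.4%, against 13.2% of all regions). They were lower at 70 (14%, against 12.7% of all regions). The split was 11 and 66 with median centring (3874 and 5216 of all 36170 regions). As deposited it was 124 and 26 (11073 and 601 of all regions). The total of 172 was 74 without male control 2 and 221 without diestrus cocaine 1. NF-Y letters stood in 55.9% of the members that were higher in males and 32.9% of those that were lower, compared to 42.4% of all members. Start-site members made up 95 of the 102 and 51 of the 70. Xpo1 had 95.6, 106 and 95.3 in the male controls, above all 6 female controls at 58.7 to 79.9, as in 32.2% of all regions. The difference was 1.00 ± 0.09 (limma adjusted p = 7.25e-09), or 0.47 as deposited (limma adjusted p = 0.0161) and 0.18 with median centring (limma adjusted p = 0.311). Cdca2 (0.82), Eif2ak3, the kinase PERK of the unfolded protein response (0.75), Leprot (0.63) and chr2:98664762-98665352 of the satellite family (0.54) came next. Cdca2, Eif2ak3 and Leprot passed as deposited, but with median centring they were at 0.14, 0.33 and 0.15 and did not (limma adjusted p of 0.438, 0.0563 and 0.404). The satellite member was at -0.62 with median centring and -0.33 as deposited.

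The chromosome 17 rDNA pattern was lower in male controls in 13 of its 14 members, with a median difference of -0.97, and in all 14 under the other scalings, with medians of -1.46 and -1.17. The chromosome 15 member had 28.4, 21.3 and 31.2 in males and 42.0 to 141 in the female controls (-1.55 ± 0.19; limma adjusted p = 4.62e-07). The Mir6236 member (-1.32), chr16:17222153-17222590 (-1.26), the Gphn intron member (-1.22) and the Zc3h7a intron member (-1.10) followed. In the satellite family, 3 members were called higher and 3 lower, whereas with median centring 12 of 12 and as deposited 11 of 12 were lower. All 3 male controls were below all 6 female controls in 12 of 12 satellite members and 14 of 14 of the chromosome 17 rDNA pattern, compared to 1.6% of all regions. Here too the members of a set share sequence or were chosen to vary alike, and do not count as separate observations. In the rank 1 region the difference as deposited was -0.72 (limma adjusted p = 0.00735).

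Called alike under all 3 scalings were 11 members higher in male controls and 17 lower, again without a background share over all regions. The 11 were the promoters of Fem1c, Garem1, Pdcd10, Etfdh, Kbtbd8, Qdpr, Ing3, Tmx2, M6pr and Rab1a, the last 2 of which serve lysosomal sorting and transport from the endoplasmic reticulum to the Golgi, and the intergenic region chr1:7396640-7399547 at the start of Gm26901. The 17 were 13 of the chromosome 17 rDNA pattern, 3 of the satellite family and chr15:75085375-75087179. Fem1c had 72.2, 74.8 and 69.7 in the male controls and 40.97 to 53.7 in the female controls. These names were chosen after the values were seen. Of the listed genes, Jun (0.48), Ndufb5 of respiratory complex I (0.34), H2afv, H2afz, Hnrnpc and Ube2d3 were higher in male controls, and Dbp (-0.42), Per1 (-0.39), Jund, Eif1, Eif4a1, Eif5a and Hnrnpl were lower. The genes listed as higher all passed as deposited and none did with median centring (limma adjusted p of 0.0921 for Ndufb5 to 0.405 for Hnrnpc). None of those listed as lower passed as deposited (limma adjusted p of 0.421 for Dbp to 0.954 for Jund), and with median centring all but Jund (limma adjusted p = 0.0937) and Hnrnpl (limma adjusted p = 0.0565) did.

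**Figure D5:**
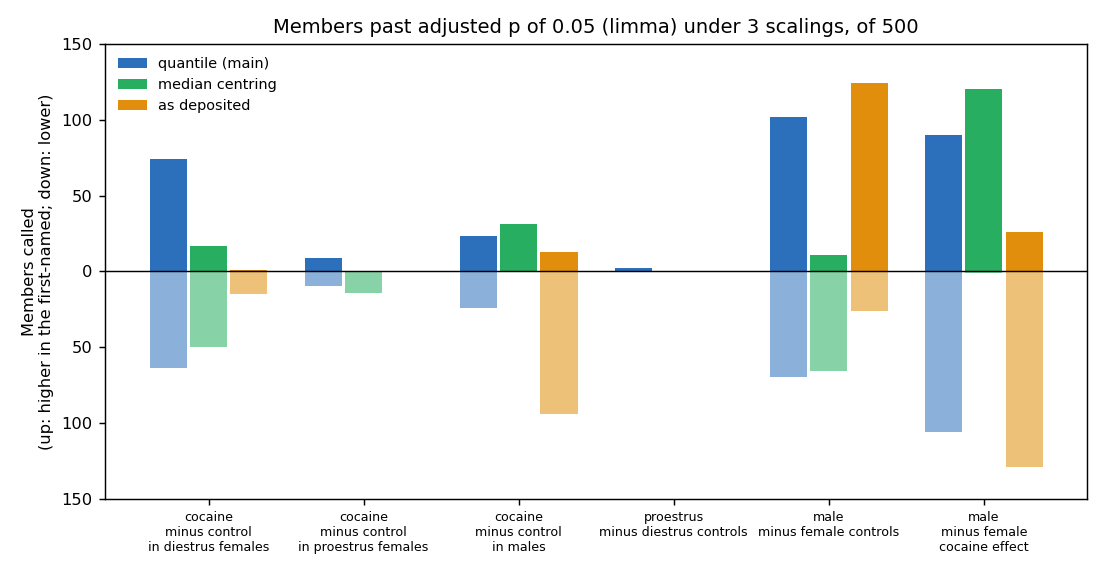
Number of the 500 members past a limma adjusted p of 0.05 in 6 comparisons under 3 scalings, higher in the first-named group or effect above the zero line and lower below it. The counts are 74 and 64 for diestrus cocaine and 102 and 70 for male against female controls with quantile scaling, and the split between higher and lower changes with the scaling.

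The cocaine effect was then compared between the sexes, as the male effect minus the mean of both female effects; this comparison shares its control libraries with the previous one, so the male controls enter both. It was higher in males at 90 members (18%, against 9.77% of all regions) and lower at 106 (21.2%, against 9.99% of all regions). These counts became 120 and 1 with median centring (4355 and 2389 of all 36170 regions). As deposited they were 26 and 129 (170 and 13273 of all regions). The total of 196 was 70 without male cocaine 2 and 278 without diestrus cocaine 1. The chromosome 17 rDNA pattern was higher in 11 of 14 members and in all 14 under the other scalings, with medians of 0.99, 1.82 and 1.28. The chromosome 17 region itself was not among the 11, at 0.36 (limma adjusted p = 0.252). In the satellite family 3 were higher and 3 lower, whereas 12 and 11 of 12 were higher with median centring and as deposited. In the rank 1 region the difference was 0.86 as deposited (limma adjusted p = 0.0305).

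Start-site members were called in both directions, 75 with a higher and 96 with a lower effect in males. With median centring, only 1 of all members had a lower one. NF-Y letters stood in 44.4% of all members called with a higher effect and 38.7% of those with a lower one. Xpo1 differed by -1.19 ± 0.14 (limma adjusted p = 3.46e-06), with cocaine values of 77.0 and 67.5 in males and of 71.5 to 95.0 in females. The male cocaine values were below all male controls, as in 65.8% of all regions. Cdca2 (-0.88), Eif2ak3 (-0.87) and Leprot (-0.83) followed, and with median centring these 4 were at -0.10, 0.04, -0.29 and -0.17 and none passed; as deposited only Cdca2 did not (-0.51, limma adjusted p = 0.0767). Jun differed by -0.75 ± 0.17 (limma adjusted p = 0.0043), by -0.85 as deposited (limma adjusted p = 0.00417) and by -0.31 with median centring (limma adjusted p = 0.272), with 72.8, 86.9 and 74.6 in the male controls and 55.4 and 51.3 in male cocaine. Called under all 3 scalings were 15 members with a higher male effect, of which 11 were of the chromosome 17 rDNA pattern and 3 of the satellite family, and 1 with a lower one, chr1:7396640-7399547. That region had 58.6, 70.6 and 65.6 in the male controls, 38.5 and 35.7 in male cocaine, 37.4 to 48.1 in the female controls and 44.5 to 60.8 in the female cocaine libraries.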

How the data were processed

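ATAC-seq peaks of 17 libraries in 6 groups were used. The authors trimmed adapters, aligned reads to mm10 with BWA-MEM and called peaks in each library with MACS2; versions, MACS2 options and the treatment of reads that align to several places are not given in the sources used here. The deposited peak lists give a fold enrichment (the ratio of summit pileup to background), −log10 p-values and −log10 q-values, a score and a summit offset, with no read counts. In every library all fold enrichments were whole multiples of 1 step to within 0.02 of a step, so each library had a single background pileup, which was read from that step. The authors also removed Y-linked, mitochondrial and blacklisted peaks before counting reads with featureCounts and testing with DESeq2; no blacklist was applied here, and neither tool was used.

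Peaks on chromosomes 1 to 19 were merged at an overlap of 1 bp. The highest fold enrichment per region and library was log2-transformed, quantile normalized over the 36170 regions called in all 17 libraries and fitted with limma 3.58.1 in R 4.3.3 (trended variance, group means of all 6 groups, Benjamini-Hochberg at 0.05 over all regions). On simulated data for the diestrus cocaine comparison over 36170 regions, 85% of 200 2-fold changes were recovered, with 11 other calls. The simulated noise was independent between regions, so false calls from shifts shared by a whole library were not assessed. Start sites were from GENCODE, sequences and the mitochondrial genome from GRCm38.p6, and matches between members from BLAST+ 2.17.0; tables were handled in Python 3.11.15 with pandas 2.3.3.

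Named members were the 12 highest medians, the 6 with the most genomic copies, the 12 highest single-copy promoters, the 8 highest single-copy members without a start site within 1 kb, the 5 largest called changes in each direction of each comparison, members at listed genes, and the 3 regions on each side of rank 500. The members and lists were chosen with earlier results of these data known. Alternatives were median centring, fold enrichment as deposited, peaks with −log10 q of at least 5, an overlap of at least 100 bp, ranking by mean or by rank, a replicate block and leaving out each library. Each library pools 3 animals, and p-values measure the spread between such pools.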

Additional observations from a re-analysis of the deposited data

Results flagged for a closer look

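The following results were marked because the cocaine effect in males differed from the mean effect in females by the limma test of that difference. Values are log2 differences of effects in quantile-scaled fold enrichment, the male effect minus the mean of the female effects. Under this test 90 members had a higher and 106 a lower effect in males.

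Of the 5 members with the largest positive difference, 4 belonged to the chromosome 17 rDNA pattern. The chr15:85177576-85177959 region (rank 500) differed by 1.776, with effects of -1.19 in diestrus, -0.73 in proestrus and 0.82 in males. The chr16:17222153-17222590 region differed by 1.633, the Mir6236 region chr9:110281126-110281519 by 1.598 and the Gphn intron region chr12:78350534-78351207 by 1.47, each with negative effects in both female stages and a positive one in males. Gm10717 of the satellite family differed by 1.613, with effects of -0.30, -0.29 and 1.31.

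The 5 with the largest negative difference were Xpo1 (-1.195), Cdca2 (-0.877), Eif2ak3 (-0.873), Leprot (-0.831) and the chr1:7396640-7399547 region (-0.778). Xpo1 had effects of 0.62 in diestrus, 0.28 in proestrus and -0.75 in males. With median centring the differences of Xpo1, Cdca2, Eif2ak3 and Leprot did not pass, that of Cdca2 turned to 0.038, and that of the chr1:7396640-7399547 region was -0.56 (limma adjusted p = 0.0407). The male cocaine libraries had the fewest peaks, and whether this bears on these differences was not tested.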

How the results depend on the processing

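The members themselves hardly moved with the processing: of the 500, 476 stayed when ranked by mean and 475 by median rank, and 500 with stricter peaks or a 100-bp overlap. The counts of called members depended on scaling and on single libraries, and so did the counts over all regions. In place of 138 members, diestrus cocaine gave 67 with median centring, 16 as deposited and 17 to 285 with 1 library left out (54 without diestrus control 2, 34 without diestrus control 3, 17 and 20 without diestrus cocaine 2 and 3, 285 without diestrus cocaine 1). Proestrus cocaine (19) gave 0 as deposited and 0 to 79 (2 to 3 without proestrus control 1 or 2 or proestrus cocaine 1, 0 without proestrus control 3, 7 without proestrus cocaine 4, 36 without proestrus cocaine 2 or diestrus cocaine 3, 79 without diestrus cocaine 1). Male cocaine (47) gave 31 with median centring, 107 as deposited and 15 to 89 (21 and 27 without male control 2 and 3, 16 and 15 without male cocaine 1 and 2, 89 without diestrus cocaine 1). Proestrus against diestrus controls (2) gave 0 with median centring, 0 as deposited, 1 with stricter peaks and 0 to 9. Male against female controls (172) gave 77 with median centring and 74 to 221 (74 and 114 without male control 2 and 3), and the sex difference of the cocaine effect (196) gave 121 and 70 to 278 (91 without male control 2, 72 and 70 without male cocaine 1 and 2). The cause was not tested.

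Of 52 named tests, 1124 values under alternatives were computed; 998 kept direction and call, 120 kept direction only and 6 reversed. With 1 library left out at a time, 38 of the 52 kept their call; those that lost it were the 10 named for proestrus cocaine, the 2 between stages, chr16:17222153-17222590 in diestrus (-0.48, limma adjusted p = 0.113, without diestrus cocaine 2) and chr2:98663551-98664241 in males (0.92, limma adjusted p = 0.0624, without male cocaine 2). The 6 were, with median centring, Gm10801 in proestrus (-0.056), Xpo1 and Cdca2 in males (0.029 and 0.034), Cdca2 in the sex difference of the cocaine effect (0.038) and chr2:98664762-98665352 between male and female controls (-0.62), the last also as deposited (-0.329).

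No correlation between a control library and the cocaine library of the same number exceeded 0.149. Male pairs had 0.006 and 0.005, proestrus pairs 0.149 and 0.098, and the 3 diestrus pairs -0.229, 0.005 and -0.143. With only 3 libraries per group, and 2 for male cocaine, these values cannot decide whether equal numbers mark paired libraries. With a replicate block, the totals were 125 in diestrus, 6 in proestrus, 31 in males, 1 between stages, 154 between sexes and 148 for the sex difference of the effect.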
